A study of Homo sapiens with 11 samples.

Results

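The change in gene expression with ST6GAL1 overexpression was described for DU145 cells, which are a human prostate cancer line that was established from a brain metastasis. All 5 DU145 RNA-Seq libraries of the 11 in the series were taken, of which 3 came from control cells and 2 from cells with ST6GAL1 overexpression. The remaining 6 libraries are of PC3 cells, another prostate cancer line. Control cells carried a negative control lentivirus and overexpression cells carried purified lentiviral particles with ST6GAL1, both as stable transduced populations, so the lentiviral treatment is shared by the groups. The overexpression libraries are numbered replicates 2 and 3, where the study states 3 repeats per condition. The labels call the replicates biological, but whether they came from separate transductions or cultures is not given in the sources used here, and p-values measure the spread between these libraries, which may be technical. All 13676 genes that passed edgeR's default expression filter, of 28395 genes in the file, were examined by function.

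ST6GAL1 is a sialyltransferase of the Golgi that adds sialic acid in alpha2-6 linkage to galactose at the ends of N-glycans. Such caps are carried by integrins, growth factor receptors, death receptors and other cell surface glycoproteins, and they change how these proteins bind ligands and lectins and how long they stay at the surface. Aberrant sialylation is a common feature of prostate cancer.

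Reads counted on genes totalled from 13194485 to 15795095 in the control libraries. Overexpression replicates 2 and 3 held 15762540 and 18082248. A count of 3, taken as the floor, stood for between 0.166 and 0.227 CPM, the count scaled to a fixed library total, and such floors cover counting error only. Levels are given as CPM after normalization with TMM factors, in the order of control replicates 1, 2 and 3 and then overexpression replicates 2 and 3, and they are not corrected for gene length. A gene was called when edgeR's quasi-likelihood test gave it a Benjamini-Hochberg adjusted p under 0.05 and its log2 fold change exceeded 0.58 in size, which are the thresholds of the study. In bulk RNA, fewer cells with a transcript and less of it per cell cannot be told apart. The epithelial keratins KRT8 (546, 579.6, 557, 436 and 496 CPM) and KRT18 (350.0, 351, 341, 282 and 302 CPM) were abundant in every library, while the luminal prostate genes KLK2, KLK3 and FOLH1 were at 0 in all of them. Of 12 leukocyte, 7 endothelial and 10 fibroblast markers, 10, 6 and 8 were under 1 CPM in both groups. The exceptions included CD68, a marker of macrophages, at 59.5, 56.9, 53.9, 51.9 and 54.6 CPM, which made up most of the summed leukocyte markers (56.4 to 61.95 CPM in the controls and 54.6 to 57.6 CPM with overexpression).

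ST6GAL1, at chr3:186930526-187078553 in GRCh38, was at 14.2, 13 and 11.3 CPM in the control libraries and at 348 and 298 CPM in the overexpression libraries. Both overexpression libraries stood far above all controls. Reads from the lentiviral and the endogenous transcript cannot be told apart in these counts. The log2 fold change was 4.65 ± 0.10 (SE; adjusted p = 1.48e-11, edgeR's quasi-likelihood test), and it ranged from 4.52 to 4.75 when any 1 library was left out.

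In all, 1222 of 13676 genes were called (8.94%), of which 592 were higher (4.33%) and 630 lower (4.61%) with overexpression. The libraries of the groups did not overlap for any called gene, but this was also so for 48.3% of all genes tested, with 2 overexpression libraries against 3 controls. The overexpression libraries differed from each other more than the controls did. The median absolute log2 difference over genes was 0.169 between overexpression replicates 2 and 3, and 0.0926, 0.112 and 0.123 between the pairs of controls. Of 9723 genes that averaged 10 CPM or more, 523 differed by more than 0.58 between the overexpression libraries, and 12, 38 and 13 between the pairs of controls. For this reason each gene was also examined in overexpression replicate 2 alone and in overexpression replicate 3 alone against the 3 controls. In these fits the lone library is assumed to vary like the controls. That assumption does not hold here, as edgeR's common coefficient of variation was 0.0526 among the controls and 0.125 among the overexpression libraries. The fits with a lone library thus take the spread as too small. Of the 1222 called genes, 976 passed the fold change threshold in both overexpression libraries, 175 in replicate 2 only, 70 in replicate 3 only and 1 in neither, and none had opposite signs in the 2 libraries.

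**Figure D1:**
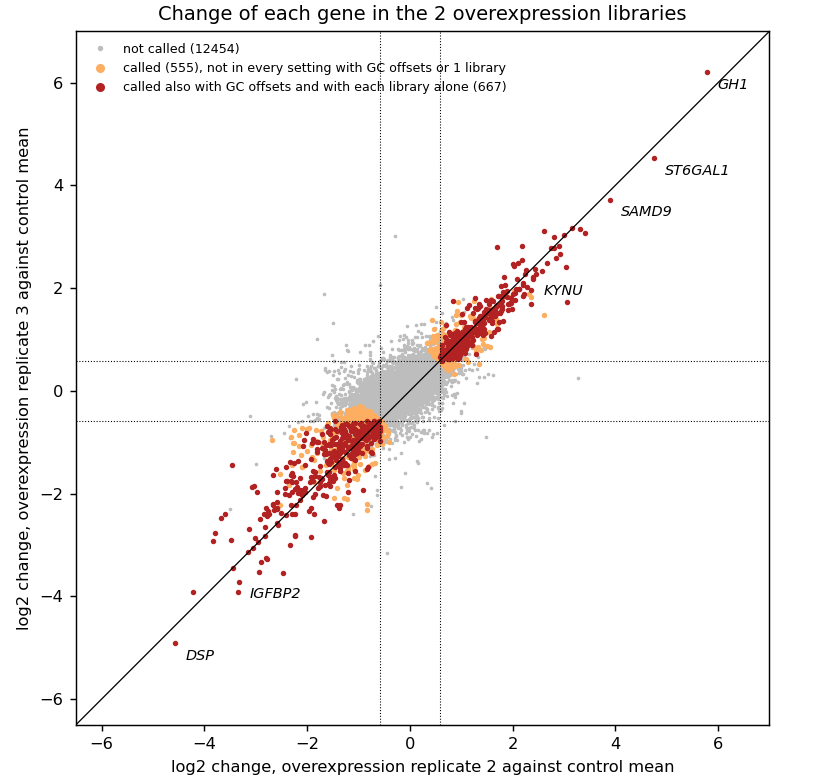
Each point is 1 of 13676 genes tested. The horizontal axis is the log2 change in overexpression replicate 2 and the vertical axis that in replicate 3, each against the mean of the 3 controls in normalized log2 CPM; dotted lines mark 0.58 in either direction. The 667 genes called in all 6 fits lie near the diagonal at both ends, with ST6GAL1, GH1 and SAMD9 at the top and DSP and IGFBP2 at the bottom, and the cloud of uncalled genes is wider along replicate 2.

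The disagreement moved with GC content. In 13333 genes with a known transcript, GC content and length accounted for 43.5% of the variance of the difference between the overexpression libraries, and for 4.37%, 8.83% and 10.3% of that between pairs of controls. They accounted for 25.2% of the variance of the change in replicate 2 and 1.71% of that in replicate 3. With genes split into 5 groups by GC content, the median log2 change in replicate 2 went from 0.146 in the group with the lowest GC to -0.472 in that with the highest, and in replicate 3 it lay between -0.025 and 0.020 in all groups. Of the genes with the highest GC, 286 were called lower and 41 higher, and of those with the lowest GC 24 were called lower and 148 higher. When GC content and length entered the fit as offsets, 1179 genes were called, 566 higher and 613 lower, and 958 of them were shared with the 1222. A gene was therefore marked as held in all 6 fits when it was called in the same direction with both libraries, with each library alone, and in the same 3 fits with the offsets, so that a gene without a known transcript could not be. This applied to 667 genes (4.88% of those tested), 330 higher (2.41%) and 337 lower (2.46%), which were 54.6% of the called genes. Genes named below as held in all 6 fits meet this definition. It marks agreement of the libraries and of the fits with and without offsets. It is no stricter error rate, since the fits with a lone library use the spread of the controls.

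**Figure D2:**
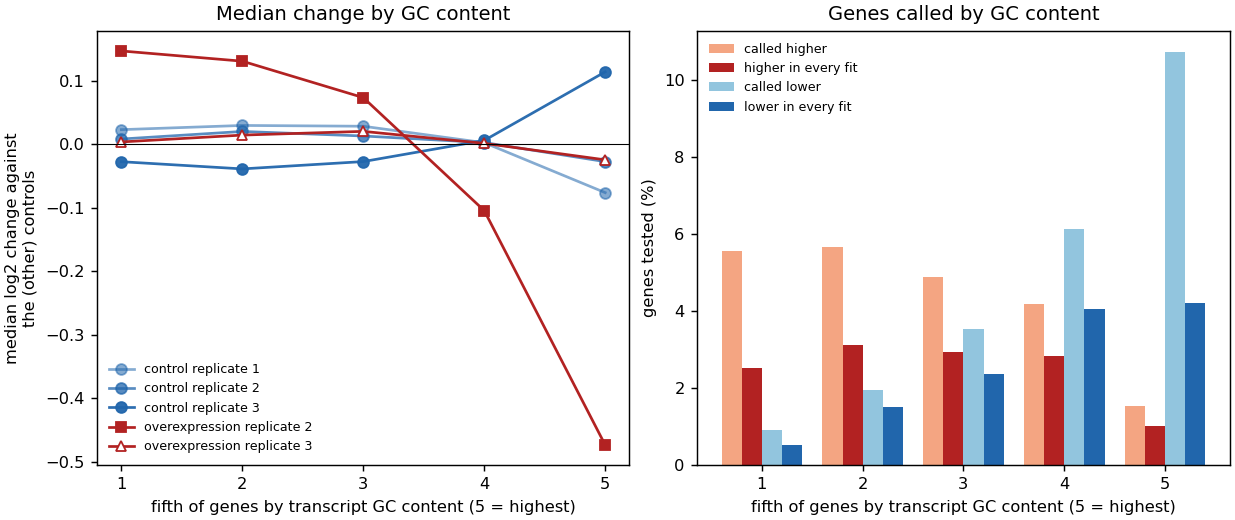
Left, the median log2 change of the genes in 5 groups of rising transcript GC content (horizontal axis), for each control library against the other controls and for each overexpression library against the controls (vertical axis). Right, the percent of genes tested in each group that were called (pale bars) or called in the same direction in all 6 fits (dark bars). Overexpression replicate 2 falls to -0.473 in the group with the highest GC, where replicate 3 is at -0.024 and the controls lie between -0.076 and 0.114, and the genes called lower rise from 0.900% to 10.7% of those tested.

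Among genes that averaged 10 CPM or more in 1 of the groups, the 12 largest rises and the 12 largest falls past the threshold in both libraries were all held in all 6 fits. These were taken from called genes with both overexpression libraries beyond all controls. Their agreement and the gap between the groups thus follow largely from this choice. GH1, which encodes growth hormone and is normally made in the pituitary, had 0, 2 and 1 counts in the controls and 158 and 246 counts with overexpression. The ratio of the summed counts was 179 after scaling for depth, with an exact 95% interval for counting error from 60.8 to 872. Of the neighbouring genes of the growth hormone cluster, GH2 had 1 count in all libraries together and CSH1 and CSH2 had none. The growth hormone receptor gene GHR was low but also rose, from 0.132, 0.189 and 0.596 CPM to 1.88 and 1.39 CPM (log2 fold change 2.43 ± 0.48 SE).

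SAMD9, an interferon-inducible gene whose product restricts poxviruses, was at 0.658, 0.568 and 0.820 CPM in the controls and at 11.83 and 10.46 CPM with overexpression, a log2 fold change of 4.03 ± 0.21 (SE). NREP, a small protein linked with neural regeneration, rose from 1.05, 1.70 and 1.49 CPM to 16.0 and 12.6 CPM. JAM3, a junctional adhesion molecule that also binds leukocyte integrins, rose from 1.51, 2.15 and 1.86 CPM to 12.9 and 13.2 CPM. In all of these the libraries of each group lay close together and far from the other group. MCTP1, a calcium-binding membrane protein, rose by 2.61 ± 0.15 (SE) on the log2 scale, from 3.88, 3.03 and 4.17 CPM to 24.0 and 21.1 CPM. RN7SL1 and RN7SL2, the RNAs of the signal recognition particle, were at 2.82 ± 0.996 and 4.45 ± 1.31 CPM in the controls (SD, n = 3) and at 22.7 ± 0.437 and 41.7 ± 3.64 CPM with overexpression (SD, n = 2). These RNAs are near-identical copies that lack a poly(A) tail, and how reads were shared between them is uncertain.

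Among the falls, DSP, which encodes desmoplakin and links desmosomes to keratin filaments, was at 356, 332 and 384 CPM in the controls and at 14.8 and 11.7 CPM with overexpression, a log2 fold change of -4.76 ± 0.12 (SE). It was also among the 5 most abundant genes called lower. IGFBP2, an insulin-like growth factor binding protein, fell from 18.4, 22.4 and 21.5 CPM to 1.94 and 1.45 CPM. RHOV, an atypical small GTPase, fell from 55.6, 55.9 and 54.1 CPM to 9.24 and 8.96 CPM, and CDHR1, a cadherin-related protein of photoreceptors, from 19.6, 20.9 and 20.8 CPM to 3.30 and 3.34 CPM. The overexpression libraries were nearly the same for both genes. CRABP2, which carries retinoic acid to its nuclear receptors, was at 161, 159 and 144 CPM and fell to 31.4 and 29.1 CPM. The guanine nucleotide exchange factor DOCK8, the collagen COL8A2, the inhibitor of endoplasmic reticulum associated degradation SVIP and the growth factor PDGFA fell by 2.17, 2.07, 2.04 and 1.98 on the log2 scale.

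**Figure D3:**
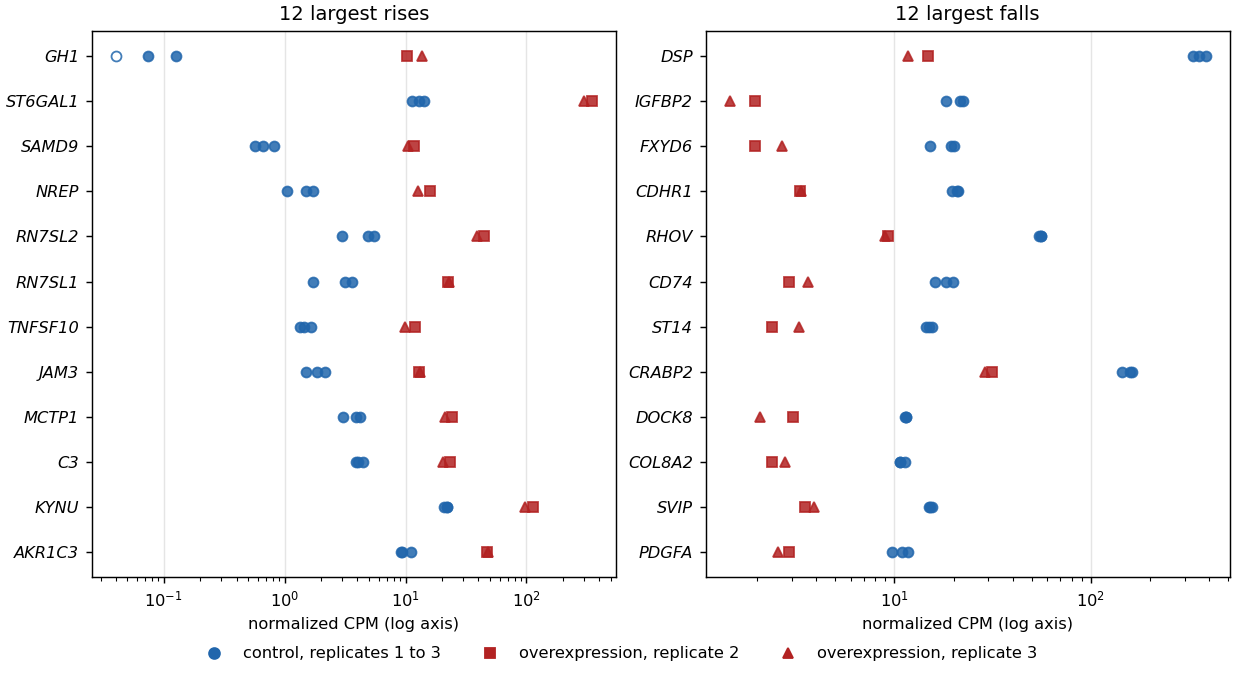
Normalized CPM on a log axis (horizontal) for the 12 largest rises and the 12 largest falls (rows), with a circle for each of the 3 controls, a square for overexpression replicate 2 and a triangle for replicate 3. In every row the overexpression libraries lie together and, as the choice of these genes required, apart from the controls. GH1 in control replicate 1 had no counts and is drawn as an open circle at the left edge.

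The promoters of 6 of these genes are shown because their changes were among the largest and because each held a motif of a factor whose targets or genes are described below. RefSeq promoters of GRCh38.p14, from 250 bases before to 50 bases after the gene start, were found for 25 of 33 genes looked up, and 18 of the 25 held at least 1 of 5 motifs. The motifs were the interferon-stimulated response element (GAAA, 2 bases of any kind, GAAA), the STAT site TTCNNNGAA, the kappa B site (GGGA, 4 bases of any kind, CC), the AP-1 site TGANTCA and the E-box CAGGTG that SNAI and ZEB factors bind, each searched on both strands. Matches are in capitals, read 5′ to 3′ on the strand of the gene. SAMD9 (chr7:93117930-93118229, minus strand) and TNFSF10 (chr3:172523381-172523680, minus strand) held the interferon-stimulated response element, with its first base at -136 and -187 from the gene start. KYNU (chr2:142877414-142877713, plus strand) held the STAT site at -34 and 6. DSP (chr6:7541421-7541720, plus strand) held the E-box at -178 and -85, IGFBP2 (chr2:216632578-216632877, plus strand) at -208, and CRABP2 (chr1:156705735-156706034, minus strand) at -186.
SAMD9: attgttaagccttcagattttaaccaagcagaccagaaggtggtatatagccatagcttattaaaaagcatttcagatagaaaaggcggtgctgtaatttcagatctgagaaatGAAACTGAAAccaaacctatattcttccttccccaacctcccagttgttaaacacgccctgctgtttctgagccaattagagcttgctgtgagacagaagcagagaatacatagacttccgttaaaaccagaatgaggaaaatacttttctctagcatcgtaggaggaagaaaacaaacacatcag
TNFSF10: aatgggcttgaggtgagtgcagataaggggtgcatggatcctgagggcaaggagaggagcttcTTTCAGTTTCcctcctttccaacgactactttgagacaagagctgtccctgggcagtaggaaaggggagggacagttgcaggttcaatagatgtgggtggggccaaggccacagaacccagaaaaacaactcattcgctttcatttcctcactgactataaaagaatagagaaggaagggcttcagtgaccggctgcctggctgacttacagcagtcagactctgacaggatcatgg
KYNU: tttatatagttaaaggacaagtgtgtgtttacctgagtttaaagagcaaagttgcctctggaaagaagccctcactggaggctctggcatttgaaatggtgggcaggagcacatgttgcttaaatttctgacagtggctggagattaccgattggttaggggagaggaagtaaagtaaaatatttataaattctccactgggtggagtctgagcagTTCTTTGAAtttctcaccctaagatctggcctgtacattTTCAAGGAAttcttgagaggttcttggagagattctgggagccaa
DSP: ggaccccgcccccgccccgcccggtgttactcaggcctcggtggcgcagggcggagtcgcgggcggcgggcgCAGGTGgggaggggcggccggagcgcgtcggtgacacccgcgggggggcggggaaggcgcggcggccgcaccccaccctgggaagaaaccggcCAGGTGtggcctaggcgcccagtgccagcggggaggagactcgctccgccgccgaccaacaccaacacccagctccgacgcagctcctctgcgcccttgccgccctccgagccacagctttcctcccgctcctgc
IGFBP2: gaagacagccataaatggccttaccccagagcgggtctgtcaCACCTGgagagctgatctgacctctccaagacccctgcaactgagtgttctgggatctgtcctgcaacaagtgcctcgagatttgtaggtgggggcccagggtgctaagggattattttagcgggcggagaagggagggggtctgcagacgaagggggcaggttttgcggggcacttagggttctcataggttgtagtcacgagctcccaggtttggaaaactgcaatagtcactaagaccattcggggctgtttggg
CRABP2: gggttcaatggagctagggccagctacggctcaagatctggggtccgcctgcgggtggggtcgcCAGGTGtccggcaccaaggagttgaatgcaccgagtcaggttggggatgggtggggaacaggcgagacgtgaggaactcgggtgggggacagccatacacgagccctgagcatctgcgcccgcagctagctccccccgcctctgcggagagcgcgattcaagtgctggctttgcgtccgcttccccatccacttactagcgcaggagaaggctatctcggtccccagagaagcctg

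The interferon-stimulated response element was in 3.57% of all 35116 promoters and in 2.58% of the 10848 promoters of genes tested, and in 5.32% of the 451 promoters of genes called higher and 2.3% of the 434 of genes called lower. The E-box was in 20.6% of all promoters and in 18.7% of those of genes tested, with 17.7% for genes called higher and 24.9% for genes called lower. The STAT site was in 6.35% of the promoters of genes tested, 8.65% for genes called higher and 4.84% for genes called lower. The kappa B site was common, in 31.1% of the promoters of genes tested, 28.4% for those called higher and 37.3% for those called lower, and the AP-1 site was in 4.41%, 6.87% and 4.61%. A match is a description of these letters and does not show that a factor binds there, and the kappa B site and E-box are rich in G and C, which also moved with the calls in overexpression replicate 2.

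The counts of called genes in the groups below are to be read beside the shares over all genes tested, 4.33% called higher and 4.61% called lower. Of the gene groups, those for sialic acid were examined first. Of 14 sialyltransferase genes tested, 5 were called higher and none lower, beside 4.33% of all genes called higher. The 5 include the overexpressed ST6GAL1 itself, whose rise was set by the design. The median log2 fold change was 0.02. ST3GAL1, which caps O-glycans with alpha2-3 linked sialic acid, rose from 7.97, 6.31 and 5.29 CPM to 15.7 and 14.9 CPM, a log2 fold change of 1.22 ± 0.16 (SE; adjusted p = 0.00011, edgeR's quasi-likelihood test). ST6GALNAC3, which sialylates gangliosides and O-glycans, rose from 2.50, 2.52 and 1.86 CPM to 5.62 and 5.96 CPM. The ganglioside enzyme ST6GALNAC5 rose from 0.132, 0.442 and 0.373 CPM to 1.16 and 1.28 CPM, and the polysialyltransferase ST8SIA4 from 0.658, 0.631 and 0.820 CPM to 1.94 and 1.34 CPM. All but ST8SIA4 were held in all 6 fits, and ST6GALNAC5 and ST8SIA4 rest on low counts. Of 8 genes for the synthesis and transport of sialic acid none was called, and GNE, the key enzyme of its synthesis, was at 63.5, 57.2 and 58.9 CPM in the controls and 64.3 and 60.8 CPM with overexpression. NEU3, the only sialidase gene that could be tested, was not called, nor was SIAE, a sialic acid esterase. The sialidase gene NEU1 lies in the major histocompatibility region, whose genes could not be read, as described below.

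Of 24 genes for N-glycan processing 3 were called higher and none lower, with a median log2 fold change of -0.01. MAN1A1, a Golgi mannosidase that trims N-glycans, rose from 11.4, 11.5 and 12.8 CPM to 26.1 and 24.8 CPM (log2 fold change 1.10 ± 0.12 SE), and was held in all 6 fits. The galactosyltransferases B4GALT1 and B4GALT5, which make the galactose that sialyltransferases cap, rose by 0.60 each, just over the threshold. B4GALT1 was abundant, at 350.3, 362 and 365 CPM in the controls and 539.5 and 551 CPM with overexpression, and neither gene was held in all 6 fits.

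DSP was the only desmosome gene called lower. Of 11 tested, 2 were called higher, and the median log2 fold change was 0.04. DSG2, a desmosomal cadherin, was at 565, 547 and 555 CPM in the controls and at 882 and 791 CPM with overexpression, and DSC3, another desmosomal cadherin, at 17.2, 19.1 and 14.8 CPM and at 28.6 and 23.9 CPM. Both were past the threshold in replicate 2 and short of it in replicate 3, where their log2 changes were 0.51 and 0.49. JUP, the plakoglobin that binds desmoplakin, was not called, at 112, 108 and 118 CPM in the controls and 78.1 and 119 CPM with overexpression, where replicate 3 lay above all controls and replicate 2 below them.

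Of 34 genes tested in a list of adherens and tight junction proteins and of regulators and proteases of epithelial cells, 7 were called lower and 1 higher, beside 4.61% and 4.33% of all genes, and the median log2 fold change was -0.23, with -0.28 in replicate 2 and -0.11 in replicate 3. Of the genes called lower only CGN and PLEKHA7 encode junction proteins. JAM3, the junctional adhesion molecule described above, rose by 2.82 on the log2 scale but is not counted in this list. The counts therefore do not describe junction genes alone. ST14, the epithelial membrane protease matriptase, fell from 14.6, 15.1 and 15.6 CPM to 2.39 and 3.28 CPM, a log2 fold change of -2.39 ± 0.17 (SE). Its inhibitor SPINT1 fell from 48.9, 48.5 and 48.2 CPM to 19.9 and 23.1 CPM. The groups were wide apart for both, and both were held in all 6 fits, as were the tight junction adaptor CGN (cingulin), which fell from 62.0, 59.6 and 61.6 CPM to 34.1 and 36.2 CPM, and the epithelial splicing regulator ESRP1, which fell by 1.21 on the log2 scale. ESRP2, OVOL2 and PLEKHA7, which serve epithelial splicing, transcription and junctions, were called lower but not in all 6 fits. CLDN4, a claudin of the tight junction, went the other way, from 8.69, 8.46 and 9.09 CPM to 21.1 and 30.7 CPM. The abundant catenin CTNNA1 was not called, at 572, 566 and 559.8 CPM in the controls and 564 and 550.2 CPM with overexpression.

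Of 10 keratin genes tested, KRT81 was called higher and KRT4 and KRT15 lower. KRT4, a keratin of stratified epithelia, fell from 5.40, 7.13 and 6.34 CPM to 0.776 and 0.890 CPM, a log2 fold change of -2.90 ± 0.25 (SE). KRT7, the most abundant, was not called, at 679, 723 and 700.0 CPM in the controls and 716 and 945 CPM with overexpression. KRT81 has near-identical copies among the hair keratins, and its level is uncertain. Of 6 markers of basal epithelium, KRT5 and KRT14 were at 0, and the pair that was tested, KRT15 and NGFR, was called lower at levels under 3 CPM.

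Of 22 mesenchymal genes 1 was called higher and 2 lower, and the median log2 fold change was 0.07. SNAI2, a transcription factor that represses epithelial genes, rose from 0.856, 0.505 and 0.671 CPM to 2.78 and 2.73 CPM, a log2 fold change of 2.01 ± 0.30 (SE), and was held in all 6 fits. ZEB1, with the same role, was at 32.9, 31.9 and 30.2 CPM in the controls and 34.1 and 30.6 CPM with overexpression, and the filament gene VIM was at 1150, 1272 and 1256 CPM and at 1312 and 1284 CPM. Neither was called. LGALS1, which encodes the galactoside-binding lectin galectin-1, fell from 287, 298 and 274 CPM to 148 and 186 CPM and was among the 5 most abundant genes called lower.

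Extracellular matrix genes changed in both directions. Of 46 tested 8 were called higher, all of them held in all 6 fits, and 5 lower, and the median log2 fold change was 0.19, with 0.09 in replicate 2 and 0.26 in replicate 3. The basement membrane collagens COL4A1 and COL4A2, which share a promoter region and assemble into the same molecule, rose together. COL4A1 went from 15.9, 13.8 and 13.9 CPM to 54.2 and 56.1 CPM, and COL4A2 from 26.9, 23.9 and 26.8 CPM to 105 and 140.3 CPM, which are log2 fold changes of 1.92 ± 0.10 and 2.25 ± 0.12 (SE). The matricellular protein TNC (68.7, 63.9, 74.6, 230.5 and 247 CPM), the integrin-binding protein TGFBI (93.8, 97.8, 90.9, 318 and 305 CPM) and the thrombospondin THBS1 (43.5, 43.2, 39.0, 101 and 108 CPM) also rose, with little spread within a group. The crosslinking enzyme LOX, the microfibril protein FBN1 and the collagen COL12A1 rose by 1.46, 0.87 and 0.98 on the log2 scale. On the other side, FBLN5 and FBLN1, fibulins of elastic fibres and basement membranes, fell from 10.8, 12.6 and 11.9 CPM to 5.56 and 4.90 CPM and from 37.7, 37.2 and 37.5 CPM to 11.96 and 17.98 CPM. COL5A1, a fibrillar collagen, had 44 counts in the controls together and 0 with overexpression. With the overexpression group set at a floor of 3 counts, it was 11.03-fold lower. The exact interval for the summed counts starts below that, at 8.60-fold.

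Of 16 integrin subunits 5 were called higher and 1 lower, beside 4.33% and 4.61% of all genes. The median log2 fold change was 0.19. ITGB8, the partner of alpha V in an integrin that activates latent TGF-beta, rose from 0.527, 0.379 and 0.373 CPM to 4.01 and 3.73 CPM, a log2 fold change of 3.15 ± 0.29 (SE). The collagen receptor subunits ITGA1 and ITGA2 rose from 3.82, 3.41 and 2.61 CPM to 9.89 and 9.29 CPM and from 41.2, 44.4 and 52.9 CPM to 91.4 and 86.1 CPM. ITGB3 rose by 0.66 on the log2 scale, and these 4 were held in all 6 fits. ITGB1, the common partner subunit and the most abundant, was not called, at 2437, 2349 and 2182 CPM in the controls and 2712 and 2368 CPM with overexpression. ITGB2, the leukocyte beta subunit, fell from 64.8, 67.4 and 64.9 CPM to 29.9 and 43.4 CPM but was not held in all 6 fits.

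Among 27 proteases and their inhibitors 4 were called higher and 4 lower. The serine protease inhibitors SERPINE2 and SERPINA1 rose from 16.1, 15.4 and 14.8 CPM to 48.2 and 42.6 CPM and from 2.44, 2.15 and 2.16 CPM to 8.86 and 7.51 CPM. ADAM12, a membrane metalloprotease, rose from 2.90, 2.65 and 3.13 CPM to 9.44 and 8.79 CPM, and PLAT, the tissue plasminogen activator, fell from 2.57, 2.90 and 2.98 CPM to 0.970 and 0.501 CPM. The group means of these genes differed by log2 fold changes of 1.56, 1.86, 1.66 and -1.95, and all were held in all 6 fits.

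**Figure D4:**
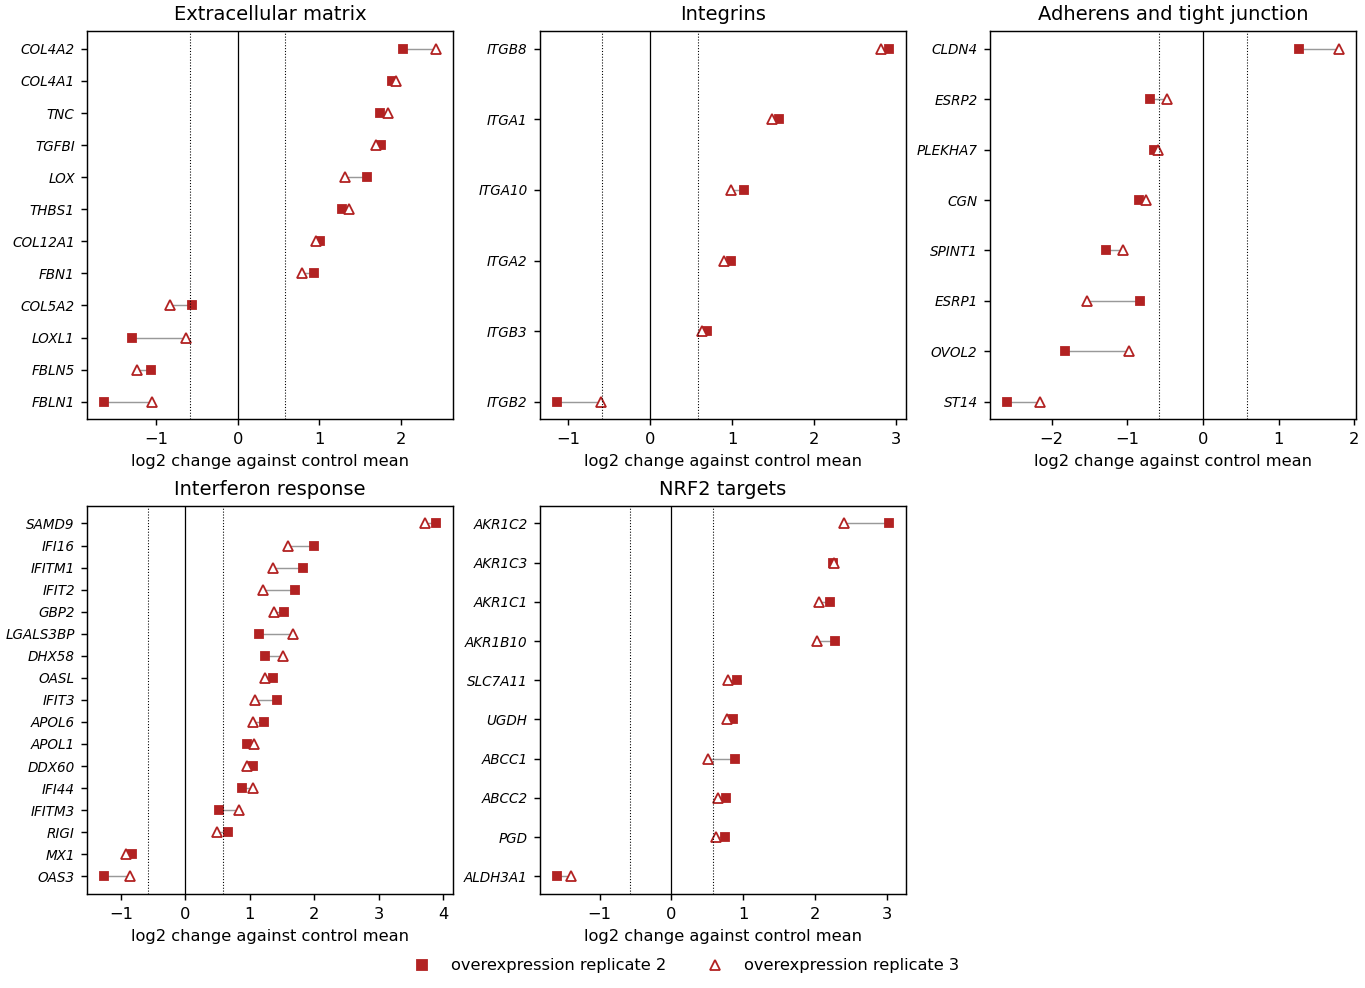
Log2 change against the control mean (horizontal axis) of the called members of 5 gene groups (rows) in overexpression replicate 2 (filled squares) and replicate 3 (open triangles), joined by a line; dotted lines mark 0.58 in either direction. COL5A1, at 0 counts with overexpression, is left out. All pairs lie on the same side of 0, and they are closest for genes such as COL4A1, TNC and AKR1C3 and widest apart for genes such as FBLN1, OVOL2 and IFIT2.

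Interferon-stimulated genes encode antiviral sensors and effectors that are transcribed after interferons bind their receptors. Of 65 tested 15 were called higher and 2 lower, beside 4.33% and 4.61% of all genes, and 12 and 2 of these were held in all 6 fits. The median log2 fold change was 0.18, where that of all genes was -0.0016. Next to SAMD9, the rises with the smallest adjusted p were those of GBP2, an interferon-inducible GTPase, from 10.3, 8.39 and 8.72 CPM to 26.6 and 23.8 CPM, and of APOL6, an apolipoprotein L, from 18.6, 20.7 and 20.8 CPM to 46.6 and 41.7 CPM. IFIT2 and IFIT3, which bind foreign RNA, rose from 13.5, 14.4 and 11.03 CPM to 42.0 and 30 CPM and from 18.3, 16.2 and 12.4 CPM to 41.4 and 32.9 CPM. For both, replicate 2 lay above replicate 3 and both lay above all controls. OASL and IFI16, which act in the sensing of foreign nucleic acid, had log2 fold changes of 1.28 ± 0.15 and 1.87 ± 0.22 (SE). OAS3 and MX1, which are also antiviral effectors induced by interferon, moved the other way. OAS3 fell from 49.0, 43.7 and 47.1 CPM to 19.3 and 25.6 CPM, and MX1 from 11.1, 8.84 and 9.47 CPM to 5.43 and 5.12 CPM.

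Of 18 antigen presentation genes tested, CD74, the invariant chain of MHC class II, was called lower, from 19.9, 18.2 and 16.1 CPM to 2.91 and 3.62 CPM, and none was called higher. Genes of the major histocompatibility region could not be read. In that region of chromosome 6, 107 of 166 protein-coding genes were at 0 in all 5 libraries (64.5%, against 19.3% elsewhere), and these included TAP1, PSMB8 and, but for 2 counts, the ribosomal protein gene RPS18, which every cell uses. Their counts say nothing of whether the genes were expressed.

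Of 15 genes of the complement list that were tested, 6 were called higher and 1 lower, beside 4.33% and 4.61% of all genes. In this list 12 had a log2 fold change above 0, and the median was 0.50, with 0.60 in replicate 2 and 0.38 in replicate 3. C3, the central component, rose from 3.88, 4.48 and 4.03 CPM to 23.3 and 20.5 CPM, a log2 fold change of 2.40 ± 0.14 (SE; adjusted p = 7.50e-08, edgeR's quasi-likelihood test). C1S, a protease of the classical pathway, rose from 21.0, 21.8 and 16.9 CPM to 41.6 and 32.8 CPM, and the C1R-like protease C1RL from 54.9, 55.4 and 53.3 CPM to 92.1 and 91.2 CPM. These 3 were held in all 6 fits. Also called were C1R, the partner protease of C1S, CALCRL, a receptor of the peptide hormone adrenomedullin that is no complement gene, and, lower, the complement receptor subunit ITGAX. CLU (clusterin), which blocks the terminal complex, was the most abundant and was not called, at 485, 466 and 444 CPM in the controls and 483 and 522 CPM with overexpression.

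Of 65 genes for cytokines, chemokines, their receptors and NF-kB, 8 were called higher and 4 lower, and the median log2 fold change was -0.02. TNFSF10, the death ligand TRAIL, rose from 1.65, 1.45 and 1.34 CPM to 12.03 and 9.96 CPM, a log2 fold change of 2.88 ± 0.19 (SE). CSF1, the growth factor of macrophages and osteoclast precursors, rose from 57.7, 57.5 and 61.6 CPM to 149 and 191 CPM, with replicate 3 above replicate 2. TNFSF13B, a survival factor of B cells, rose from 0.395, 0.252 and 0.149 CPM to 2.52 and 2.50 CPM, and TNFRSF21, a death receptor, by 0.69 on the log2 scale. The mucosal chemokine CCL28 fell from 19.7, 17.5 and 17.3 CPM to 8.53 and 8.46 CPM. The neutrophil chemokine CXCL5 had 75 counts in the controls together and 2 with overexpression, a ratio of 28.2 after scaling for depth (exact 95% counting interval from 7.54 to 237). The neutrophil chemokine CXCL2 fell by 0.73 on the log2 scale.

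Of 23 JAK-STAT genes 1 was called higher and 2 lower. The growth hormone signal transducer STAT5A fell from 9.09, 7.76 and 9.24 CPM to 4.53 and 4.67 CPM, and SOCS2, a STAT5 target that restrains growth hormone signalling, fell from 64.5, 68.2 and 65.6 CPM to 40.7 and 37.0 CPM. Both were held in all 6 fits.

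In the TGF-beta and BMP pathway, ligands bind serine/threonine kinase receptors that activate SMADs, and targets include the ID genes. Of 47 genes 8 were called higher and 3 lower, and the median log2 fold change was 0.13. Among ligands and the proteins that bind them, TGFB2 rose from 21.9, 22.4 and 25.2 CPM to 42.4 and 37.8 CPM and the latent TGF-beta binding protein LTBP1 from 21.6, 20.2 and 20.5 CPM to 53.8 and 49.3 CPM. The receptor TGFBR2 was not called, at a log2 fold change of 0.32 ± 0.07 (SE). Among inhibitors and targets, the SMAD co-repressor SKIL rose from 35.5, 38.1 and 34.8 CPM to 71.2 and 65.2 CPM and the inhibitory SMAD7 by 0.69 on the log2 scale. ID2, an inhibitor of differentiation factors, rose from 11.4, 12.1 and 12.1 CPM to 34.5 and 34.1 CPM, with little spread within either group. ID3 was at 61.7, 71.4 and 66.5 CPM in the controls and at 84.0 and 126 CPM with overexpression, and was called but not in all 6 fits. The antagonist CHRD, the ligand BMP4 and the transcription factor HES4, which is in the Notch list below, were called lower, none of them in all 6 fits.

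Of 23 Notch genes 1 was called higher and 3 lower. The ligand JAG1 rose from 2.44, 3.28 and 3.35 CPM to 7.05 and 7.29 CPM. The receptor NOTCH3 fell from 28.4, 27.7 and 33.2 CPM to 10.2 and 14.2 CPM, and NRARP, a Notch target and feedback inhibitor, from 6.91, 7.32 and 8.27 CPM to 3.17 and 2.39 CPM. JAG1, NOTCH3 and NRARP were held in all 6 fits. The third gene called lower, HES4, fell by 1.14 on the log2 scale and was not held in all 6.

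Of 43 Wnt genes 8 were called lower and 1 higher, beside 4.61% and 4.33% of all genes, and the median log2 fold change was -0.07. Several of the falls were feedback inhibitors that Wnt signalling induces. RNF43, a ligase that removes Wnt receptors, fell from 16.0, 14.6 and 14.98 CPM to 4.46 and 4.34 CPM, a log2 fold change of -1.79 ± 0.14 (SE). NKD1, which inhibits Dishevelled, fell from 6.45, 5.05 and 7.83 CPM to 1.10 and 1.78 CPM, and NOTUM, which removes the lipid of Wnt ligands, from 2.90, 3.79 and 3.65 CPM to 0.453 and 1.11 CPM. CCND1 (cyclin D1), a target, fell from 151, 150.3 and 167 CPM to 75.2 and 89.2 CPM. RNF43, NKD1, NOTUM and CCND1 were held in all 6 fits, and the ligands WNT4 and WNT5B, the receptor ROR2 and the repressor TCF7L1 were called lower but not in all 6. TCF7, a transcription factor of the pathway, rose by 0.81 ± 0.14 (SE) on the log2 scale. CTNNB1 (beta-catenin) was not called, at 341, 346 and 335 CPM in the controls and 353 and 333 CPM with overexpression.

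Of 16 ERBB genes 3 were called lower and none higher. The EGFR ligand AREG fell from 128, 136 and 116 CPM to 54.5 and 58.2 CPM and the ERBB3 ligand NRG1 from 1.32, 1.77 and 1.27 CPM to 0.582 and 0.501 CPM. The receptor ERBB2 was not called, at 213, 198 and 207 CPM in the controls and 151 and 190.0 CPM with overexpression. Of 24 genes that report ERK activity 4 were called lower and 1 higher. EGR1, an immediate early transcription factor, fell from 54.6, 62.7 and 46.1 CPM to 15.9 and 14.9 CPM, a log2 fold change of -1.82 ± 0.13 (SE). The ETS factors ETV4 and ETV5 fell from 11.8, 12.1 and 13.3 CPM to 4.78 and 6.29 CPM and from 56.4, 53.9 and 58.2 CPM to 31.2 and 34.1 CPM. FOSL2, a subunit of AP-1, rose by 0.72 on the log2 scale. EGR1, ETV4, ETV5, FOSL2, AREG and NRG1 were held in all 6 fits.

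Among 27 genes of other receptor kinases 5 were called higher and 4 lower. VEGFA and its co-receptor NRP1 rose from 180.1, 189.6 and 176 CPM to 292 and 301 CPM and from 222, 227 and 222 CPM to 372 and 353 CPM. PDGFA fell from 9.68, 11.7 and 10.96 CPM to 2.91 and 2.56 CPM, and the receptors FGFR4 and FGFR1 fell by 0.98 and 0.64 on the log2 scale. NRP1 and FGFR1 were not held in all 6 fits.

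Of 13 genes of the insulin-like growth factor axis 2 were called higher and 3 lower, all held in all 6 fits. Against the fall of IGFBP2, the binding protein IGFBP4 rose from 133, 141 and 127 CPM to 244 and 255 CPM, and PAPPA2, a protease that cleaves binding proteins, from 0.329, 0.505 and 0.298 CPM to 2.13 and 2.78 CPM. IGFBPL1, a related secreted protein, fell from 137, 144 and 139.7 CPM to 69.6 and 67.7 CPM, and the mRNA-binding protein IGF2BP3 by 0.73 on the log2 scale. IGFBP5, a gene the study names, had 0, 2 and 2 counts in the controls and 2 and 3 with overexpression and was not tested.

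Of 16 retinoid genes 4 were called lower and 1 higher. Besides CRABP2, the retinoic acid degrading enzyme CYP26B1 fell from 22.4, 22.2 and 24.1 CPM to 13.2 and 14.8 CPM. PLAAT4, a retinoid-inducible phospholipase, rose by 0.82 ± 0.19 (SE) on the log2 scale. The list for the kynurenine pathway of tryptophan breakdown also held the aryl hydrocarbon receptor and related genes. Of 12 genes tested in it 3 were called higher and 1 lower. Those called higher were KYNU, AHR and CYP1A1, of which only KYNU is an enzyme of the pathway. KYNU, which splits kynurenine and its hydroxylated form, rose from 21.9, 21.8 and 20.7 CPM to 114 and 97.7 CPM, a log2 fold change of 2.30 ± 0.09 (SE), while HAAO, the dioxygenase of the next step, fell from 2.04, 2.65 and 2.24 CPM to 0.388 and 0.334 CPM. AHR, the aryl hydrocarbon receptor for which kynurenine is a ligand, rose from 81.2, 82.0 and 85.1 CPM to 130.1 and 129 CPM but was not held in all 6 fits.

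NRF2 is the transcription factor of the antioxidant response. Of 30 genes in a list of its targets 9 were called higher and 1 lower, beside 4.33% and 4.61% of all genes. Of these, 7 and 1 were held in all 6 fits, and the median log2 fold change of the list was 0.20. The list also holds the gene of NRF2 itself, NFE2L2, and its inhibitor KEAP1, and neither was called. The largest rises were those of the aldo-keto reductases AKR1C1, AKR1C2, AKR1C3 and AKR1B10, while AKR1B1, of the same family, had a log2 fold change of 0.53 and was not called. AKR1C3, which also makes testosterone from androstenedione, went from 11.2, 9.28 and 9.17 CPM to 47.2 and 47.97 CPM, and AKR1B10 from 1.91, 2.71 and 2.24 CPM to 11.5 and 9.63 CPM. AKR1C1, AKR1C2 and AKR1C3 are close copies, and how reads were shared between them is uncertain. The cystine transporter SLC7A11 rose from 136, 131 and 143 CPM to 258 and 236 CPM, and UGDH, which makes UDP-glucuronic acid, from 472, 478 and 468 CPM to 854 and 809.5 CPM. The target NQO1 was not called, at 1441, 1502 and 1359 CPM in the controls and 1627 and 1476 CPM with overexpression, nor were FTL and TXNRD1, and the aldehyde dehydrogenase ALDH3A1 fell by 1.58 on the log2 scale.

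Of 21 genes tested in a list for the hypoxia response 7 were called higher and 2 lower, beside 4.33% and 4.61% of all genes. None of 20 glycolytic enzymes was called. The oxygen-regulated transcription factors EPAS1 and HIF1A rose from 115, 106 and 118 CPM to 231 and 244 CPM and from 451, 444 and 448 CPM to 803 and 736 CPM. NDRG1, a stress-response gene, rose from 146, 155 and 144 CPM to 273 and 278 CPM, and the prolyl hydroxylase EGLN3, which marks HIF proteins for removal, from 4.94, 4.80 and 6.04 CPM to 16.4 and 14.8 CPM. The secreted factors ANGPTL4 and ADM fell from 4.21, 4.99 and 4.17 CPM to 0.776 and 0.445 CPM and from 3.49, 4.54 and 3.65 CPM to 1.16 and 0.835 CPM. These 6 were held in all 6 fits.

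Of 36 genes of the unfolded protein response 4 were called higher and none lower. NUPR1, a stress-induced regulator of the ATF4 branch, rose from 5.73, 7.07 and 5.52 CPM to 17.8 and 18.3 CPM, and the chaperone HSPA5 was not called, at 1399, 1547 and 1450 CPM in the controls and 1567 and 1454 CPM with overexpression.

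Of 62 cell cycle genes 2 were called higher and 1 lower, while 52 had a log2 fold change below 0 and the median was -0.21, with -0.15 in replicate 2 and -0.24 in replicate 3. None of 21 replication and 26 mitosis genes was called, and their medians were -0.17 and -0.24. MKI67 was at 1208, 1052 and 1266 CPM in the controls and 1238 and 1254 CPM with overexpression. CDKN1A (p21), which inhibits cyclin-dependent kinases, rose from 40.9, 43.0 and 45.9 CPM to 72.3 and 79.2 CPM, and CCND1 is the gene that fell. Of 31 apoptosis genes 2 were called higher and none lower, which were BMF, a BCL2 family member that promotes cell death (17.4, 15.7, 16.3, 43.2 and 36.3 CPM), and the inflammatory caspase CASP4 (15.7, 14.9, 10.9, 29.7 and 26.3 CPM). None of 53 ribosomal protein genes and none of 35 complex I genes was called, with medians of -0.03 and -0.13.

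Among 29 cholesterol genes 22 had a log2 fold change below 0 and the median was -0.18, with 2 called lower and 1 higher. The exporter ABCA1 rose from 14.5, 13.9 and 15.9 CPM to 39.6 and 36.3 CPM. NPC1, which moves cholesterol out of lysosomes and was among the 5 most abundant genes called higher, rose from 374, 369 and 401 CPM to 848 and 872 CPM, a log2 fold change of 1.17 ± 0.08 (SE). PSAP, the precursor of lysosomal saposins, and AHNAK2, a large scaffold protein, were also among these 5, at log2 fold changes of 0.59 and 0.66, and neither was held in all 6 fits. In fatty acid metabolism CPT1A, which imports fatty acids into mitochondria, fell from 82.4, 88.6 and 96.2 CPM to 51.4 and 52.0 CPM. Among the abundant genes called lower, the calpain inhibitor CAST fell from 299.7, 286 and 285 CPM to 183 and 166 CPM, and the calcium-binding protein EFHD2 from 333, 356 and 366 CPM to 157 and 215 CPM. The tubulin TUBB4B was called lower but not in all 6 fits.

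Of 13 genes linked with stem cells 4 were called higher and 2 lower. SOX4, a transcription factor of progenitor cells, rose from 48.1, 49.0 and 49.0 CPM to 106 and 106 CPM, the hyaluronan receptor CD44 from 139, 132 and 139 CPM to 259 and 238 CPM, and the filament gene NES fell from 39.9, 36.9 and 42.4 CPM to 13.3 and 14.7 CPM. Of 39 axon guidance genes 6 were called lower and 2 higher. The guidance ligand NTN1 fell from 41.8, 37.8 and 43.8 CPM to 13.2 and 17.4 CPM and its receptor UNC5B from 2.11, 2.08 and 2.61 CPM to 0.646 and 0.668 CPM. Both were held in all 6 fits. Of 7 ion pump and FXYD genes 2 were called lower, of which FXYD6, a regulator of the sodium pump, fell from 19.4, 20.0 and 15.1 CPM to 1.94 and 2.67 CPM.

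**Figure D5:**
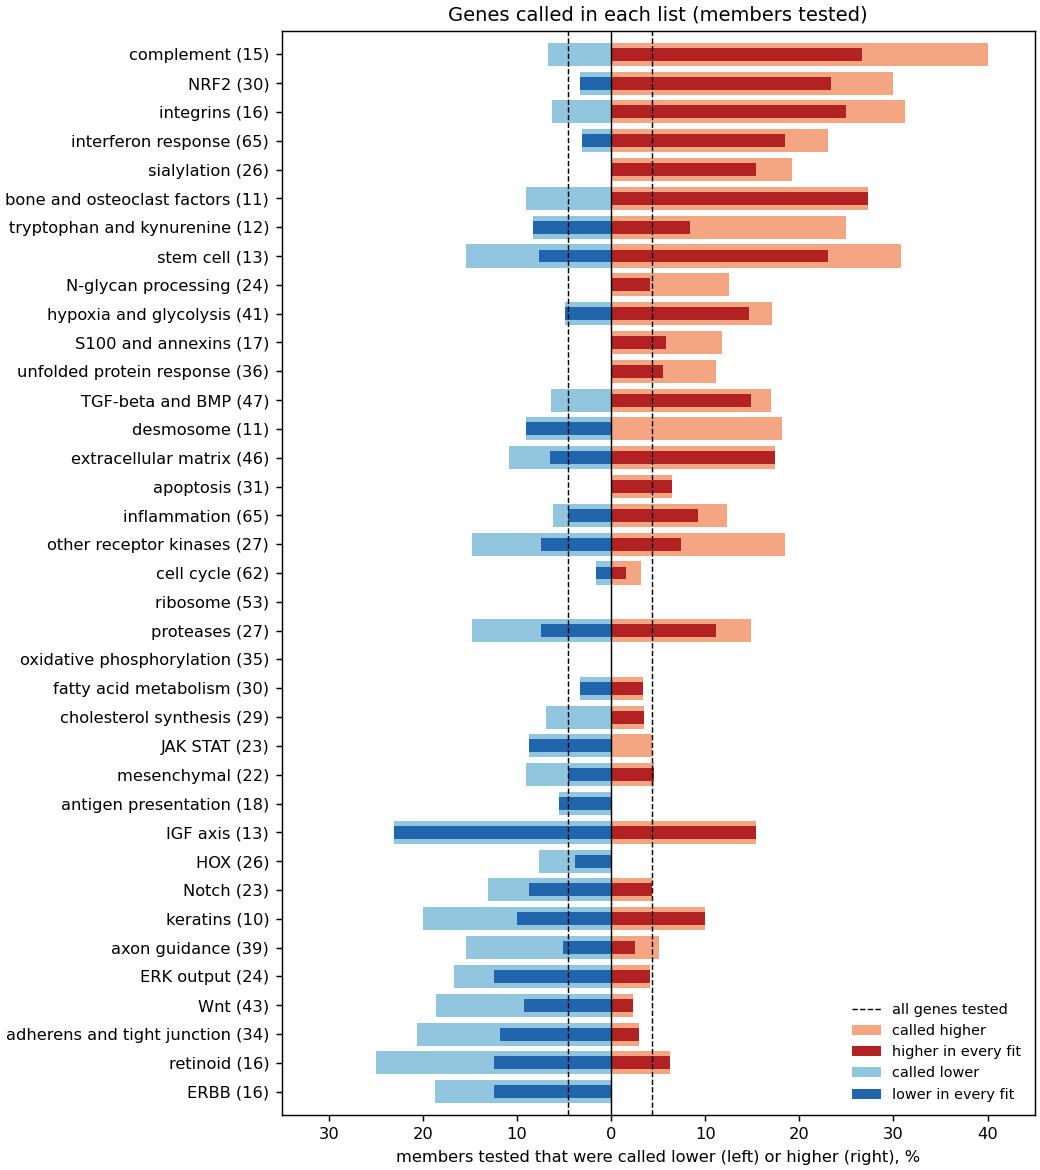
For each gene list with at least 10 members tested (rows, with that number), the percent of members tested that were called higher (right) or lower (left), with pale bars for genes called and dark bars for genes called in the same direction in all 6 fits, ordered by the share called higher minus the share called lower. Dashed lines mark 4.33% and 4.61% over all genes tested. Complement, NRF2 and interferon response extend to the right, retinoid, adherens and tight junction, ERBB and Wnt to the left, and the ribosome and oxidative phosphorylation lists hold no called gene. The adherens and tight junction list also holds regulators and proteases of epithelial cells, and it does not hold JAM3.

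The genes on which the overexpression libraries differed most were also examined. Among genes at that level of 10 CPM or more, the 6 called genes that differed most were C1QL4, CASZ1, ADAM8, SLC25A22, PALM and PDLIM2, all lower and more so in replicate 2. PALM, a membrane-associated phosphoprotein, was at 32.9, 33.0 and 32.9 CPM in the controls and at 9.31 and 16.4 CPM with overexpression. SLC25A22, a mitochondrial glutamate carrier, was at 18.1, 20.3 and 22.1 CPM and at 7.89 and 14.1 CPM, and its log2 change of -0.51 in replicate 3 was short of the threshold. Of the 6 genes that differed most without being called, MZT2B, a part of the gamma-tubulin ring complex, was at 14.3, 17.8 and 23.6 CPM in the controls and at 5.62 and 17.98 CPM with overexpression, so replicate 3 lay within the controls and replicate 2 below them. TEDC1, TELO2, TRAPPC5 and CCDC85B showed the same pattern, and the pseudogene ANP32AP1 was instead at 10.1, 11.2 and 13.3 CPM in the controls, 12.8 CPM in replicate 2 and 4.23 CPM in replicate 3.

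The changes in DU145 were set against those in PC3 cells overexpressing ST6GAL1 and their controls, by the interaction of line and overexpression in edgeR over all 11 libraries. The interaction had an adjusted p under 0.05 for 2949 of 14952 genes (19.7%). Levels in the lines come from tables that were normalized separately. ST6GAL1 itself rose more in DU145, by 1.06 ± 0.18 (SE) on the log2 scale, from a higher control level. Of the 8 largest rises and 8 largest falls in DU145, 12 differed between the lines, in the same direction as in DU145. These genes were chosen by their change in the same DU145 libraries. Differences in that direction thus follow largely from the choice, and their share is not comparable with that over all genes. The 12 include GH1, which passed in only 7 of 15 settings of the processing. DSP was at 30.9 ± 2.15 CPM in PC3 controls (SD, n = 3) and at 35.5 ± 1.00 CPM with overexpression (SD, n = 3), and the difference between the lines was -4.96 ± 0.12 (SE; adjusted p = 2.83e-15, edgeR's quasi-likelihood test). ST14 went in opposite directions, from 2.60 ± 0.284 to 16.5 ± 1.49 CPM in PC3 (SD, n = 3 and 3), a log2 fold change of 2.66, and the difference between the lines was -5.05 ± 0.19 (SE). SAMD9 was at 20.5 CPM in PC3 controls and 20.5 CPM with overexpression, and NREP at 49.9 and 55.1 CPM, so that in DU145 both genes stayed below their PC3 level also after their rise. JAM3 had a log2 fold change of -0.43 ± 0.14 (SE) in PC3, and CRABP2 fell in both lines, with a difference of -1.71 ± 0.12 (SE) between them. FXYD6, CDHR1 and CD74 were close to 0 in PC3. TNFSF10 was low there but higher with overexpression, at 0.285 ± 0.157 CPM in the controls and 0.892 ± 0.359 CPM with overexpression (SD, n = 3 and 3). All PC3 overexpression libraries lay above all PC3 controls for TNFSF10, which was too low to be tested in PC3 alone. For TNFSF10, FXYD6, CDHR1 and CD74 the difference between the lines did not pass the threshold.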

How the data were processed

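RNA from 3 control and 2 ST6GAL1 overexpression libraries of DU145 cells was sequenced after TruSeq Stranded mRNA preparation. In Galaxy the authors used Cutadapt for trimming, FastQC for quality, HISAT2 for mapping to hg38 and featureCounts for counting, and deposited the unnormalized counts by Entrez gene identifier. The annotation and strand setting used for counting are not given in the sources used here, so overlapping and antisense genes cannot be told apart. Columns were matched to samples by name.

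Symbols of RefSeq GRCh38.p14 were found for 27745 of 28395 genes (97.7%). From the counts, log2 fold changes were computed in R 4.3.3 with edgeR 4.0.16 (filterByExpr, TMM factors, robust quasi-likelihood test, Benjamini-Hochberg adjustment over all genes tested), with thresholds of 0.05 on the adjusted p and 0.58 on the size of the log2 fold change. Log2 CPM of single libraries used a prior count of 2. Offsets for GC content and length were natural splines with 5 degrees of freedom on the longest transcript, known for 25967 genes (91.4%). Limma-voom (limma 3.58.1), which the study used, DESeq2 1.42.0, other scalings and filters, a replicate block and fits with a library left out were alternatives. The fit was tested on simulated data with the same spread in every library. That test does not cover the larger spread between the overexpression libraries. No pair of libraries differed by less than sampling noise. A mean of 3 against 2 libraries cannot give an exact permutation p under 0.1, and none was used.

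The comparison, the gene lists, written from memory, and the rule for named genes were chosen with earlier results of these data known. The rule named ST6GAL1, the 12 largest rises and falls, the 5 most abundant called genes in each direction, the genes with the largest disagreement between overexpression libraries, the genes the study names, and in each list the 3 called members with the smallest adjusted p in each direction and the 2 most abundant members not called, or any member of a list of 15 or fewer. Called members of a list that are named beyond the rule were chosen after their values were seen. Some members of the lists that the rule would name are not reported here. PC3 libraries entered only the test of a difference between the lines.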

Additional observations from a re-analysis of the deposited data

Results flagged for a closer look

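Results were marked for a closer look where the change with overexpression differed between DU145 and PC3 by the interaction of line and overexpression in edgeR's quasi-likelihood test, among the 8 largest rises and 8 largest falls in DU145. As these genes were chosen by their change in DU145, a difference in that direction follows largely from the choice. No group held enough libraries for a test of single outlying samples.

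The differences, as log2 change in DU145 minus that in PC3, were 1.06 for ST6GAL1, 4.02 for SAMD9, 3.17 for NREP, 3.25 for JAM3, 2.94 for RN7SL2 and 2.54 for RN7SL1 among the rises. Among the falls they were -4.96 for DSP, -4.62 for IGFBP2, -2.60 for RHOV, -5.05 for ST14 and -1.71 for CRABP2. All of these passed in the 15 settings tried, and ST14 moved in opposite directions in the lines. The difference of 9.16 for GH1 had an adjusted p of 0.045 in edgeR's quasi-likelihood test and passed in 7 of 15 settings, with a highest adjusted p of 1.00. GH1 had 1 count in all 6 PC3 libraries together. IGFBP2 was also low in PC3, at 0.301 and 0.620 CPM on average in the control and overexpression libraries.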

How the results depend on the processing

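The log2 fold change of ST6GAL1 lay between 4.49 and 4.75 in all settings, and its range when any 1 library was left out was 4.52 to 4.75. The number of genes called in DU145 (1222) was within 1.5 times of the main value with DESeq2 (962), limma-voom (1248), library weights (1089), RLE factors (1208), library totals (1173), no filter (1339), at least 10 counts in every library (1002) and offsets for GC content and length (1179). It ranged from 830 to 2072 with each library left out. The value of 2072 was without overexpression replicate 3, that is with replicate 2 alone, where 674 genes were higher and 1398 lower and 1079 were shared with the 1222. Genes were 2747 on the adjusted p alone, 807 when called in both fits with a single overexpression library, and 796 when called in both such fits with the offsets, which were chosen after seeing the data. The count of genes with a difference between DU145 and PC3 (2949) ranged from 2287 to 5161 with each library left out, the highest without DU145 overexpression replicate 3.

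Whether replicate numbers pair the samples could not be decided. The residuals of same-numbered libraries correlated at 0.0867 and 0.293 over only 2 numbers, over genes that are not independent. With 2 overexpression libraries the residuals of each are the negative of the other's, so these values cannot test a pairing. With the number as a replicate block, 1517 genes were called in DU145 (631 higher and 886 lower), 1155 with the block and the offsets, and 3551 differed between the lines. ST6GAL1 had a log2 fold change of 4.73 with the block.

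Of 220 called genes named or in a list, none changed sign in any setting, and the most lost were 55, without control replicate 2. Genes not called for which the libraries disagreed changed sign: without overexpression replicate 2, TELO2 was at 0.071 and CCDC85B at 0.29, against lowest values of -1.52 and -1.24 with another library left out, and with the offsets as well MZT2B was at 0.044, TEDC1 at 0.0053, TELO2 at 0.17, TRAPPC5 at 0.0010 and CCDC85B at 0.41. Without overexpression replicate 3, ANP32AP1 was at 0.16, against a lowest value of -1.45, and at 0.032 with the offsets. CCDC85B was at 0.23 with the offsets and at 0.11 with offsets and block. The difference DU145 minus PC3 of CD74 was 0.15 without PC3 overexpression replicate 2 and at the lowest -3.49, without replicate 3. In PC3, CD74 was at 0, 0.063 and 0.065 CPM in control replicates 1, 2 and 3 and at 0, 0.166 and 0 CPM in overexpression replicates 1, 2 and 3. The cause of these sign changes was not tested. List medians changed sign in some settings for N-glycan processing, desmosomes, keratins, inflammation, Notch, the IGF axis, retinoids, tryptophan, apoptosis, hypoxia, ribosomes, axon guidance, ion transport, S100, stem cell and fibroblast genes, and in none for interferon response, complement, junctions, NRF2, integrins and the cell cycle.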

Other observations

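Genes were also grouped by chromosome. On chromosome 18, 22 of 197 genes tested were called higher and 3 lower, and the median log2 change was 0.26 in overexpression replicate 2 and 0.19 in replicate 3, where that of all genes was 0.01 and 0.00. With offsets for GC content and length the median on chromosome 18 was 0.10. On chromosome 21, 2 of 129 genes were called higher and 12 lower, and the medians were -0.16 and -0.14, and -0.22 with the offsets. Of all genes 8.94% were called, and the share was highest on chromosome 8, where 14.6% of 459 genes were called, 25 higher and 42 lower. Chromosome 4 followed with 12.9% of 487 genes, 47 higher and 16 lower, and after chromosome 18 came chromosome 5 with 11.8% of 601 genes, 48 higher and 23 lower. NPC1 and DSG2, which are among the most abundant genes called higher, lie on chromosome 18.

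Of 39 HOX genes listed, 26 were tested, 23 had a log2 fold change below 0 and 2 were called lower, with a median of -0.17. HOXC8, a patterning factor, fell from 6.32, 6.88 and 5.52 CPM to 2.85 and 2.95 CPM. Of 30 cancer testis antigens 2 were tested, and TEX15, a germ cell gene, fell from 79.1, 71.0 and 75.2 CPM to 48.2 and 42.4 CPM. In the S100 and annexin list, S100A9, a calcium-binding protein of myeloid cells, rose from 2.11, 2.59 and 1.12 CPM to 4.46 and 4.23 CPM, and PECAM1, an adhesion molecule of endothelium, was called higher at low levels, from 0.198, 0.442 and 0.447 CPM to 0.776 and 1.45 CPM, while the endothelial genes CLDN5 and ERG were at 0 in all libraries.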
